A study of Sus scrofa with 43 samples.

Results

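The 10 genes described here are porcine cytochrome P450 genes of the families that handle drugs and other foreign compounds, namely CYP1A1, CYP2B22, CYP2C33, CYP2C42, CYP2C49, CYP2D25, CYP3A22, CYP3A29, CYP3A39 and CYP3A46. A probe was assigned to a gene where its transcript accession was listed for that gene in the RefSeq gene table of the pig. An accession of 9 of the 10 names was on the array, and no probe was matched to CYP3A22. CYP3A39 is listed as another name of CYP3A46, so the array held 8 separate genes, measured by 24 probes, among 35884 transcript accessions. CYP2C42 rested on 1 probe, CYP1A1 and CYP2B22 on 2 each, CYP2C49, CYP2D25 and CYP3A29 on 3 each, CYP3A46 on 4 and CYP2C33 on 6. Paralogues of the CYP2C and CYP3A subfamilies are close in sequence, so signal of one gene on a probe of another was not tested.

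Cytochromes P450 are haem enzymes of the endoplasmic reticulum that insert oxygen into lipophilic compounds, the step after which transferases conjugate the products for excretion. They take their electrons from NADPH through the reductase POR, with cytochrome b5 (CYB5A) as a helper. CYP3A enzymes are the main drug-oxidizing P450s of the small intestine, where they act in mature villus enterocytes. Transcription of CYP2B, CYP2C and CYP3A genes responds to the xenobiotic receptors NR1I2 (PXR) and NR1I3 (CAR), and that of CYP1A genes to the aryl hydrocarbon receptor.

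Jejunal mucosa of 43 piglets was measured on 1 array each. Of these, 23 piglets came from Hypor sows on standard feed (control) and 20 from sows that also took amoxicillin by mouth each day, 15 mg per kg body weight, over the last week or so of gestation. The piglets themselves were not dosed. The control arm had group sizes of 6 (day 1), 6 (day 7), 3 (weaning), 5 (4 d postweaning) and 3 (4 wk postweaning), and each amoxicillin group held 4. The methods place the last 3 ages at day 26, 30 and 54 and describe male piglets of average weight. Which piglets shared a sow or a farrowing batch is not in the labels used, so p-values measure the spread between these piglets. Control samples 19 and 19B of day 1 are counted as separate piglets, although the labels do not give their relation. Each piglet was sampled at a single age, so the course over age compares different animals. All values below are log2 intensities after background correction and quantile normalization, and levels are compared within a gene, never between genes.

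Gene spots above background numbered 15937 to 29827 on control arrays and 16150 to 26290 on amoxicillin arrays, with medians of 28182 and 21316.5, and the lowest control array (piglet 34 at 4 wk postweaning) aside, controls started at 25560. Control arrays lay on slides 1 to 3 and amoxicillin arrays on slides 4 to 6, so treatment and slide cannot be told apart. Slide here means the slot number in the name of each scan, and whether a slot was 1 physical slide was not checked. Age ran along the slides too, with the day 1 arrays of an arm on its lowest-numbered slide and the 4 wk arrays on its highest. Slides were shared only by ages that follow one another, with arrays of day 7, weaning and 4 d postweaning together on slides 2 and 5. Of 5 liver markers with a probe, 2 passed the filter on low values, and ALB was not among them. Enterocyte markers were high on all arrays, with a mean over 9 genes of 14.65 to 15.71 on 42 arrays. The exception was amoxicillin piglet 8 at weaning, with an enterocyte mean of 13.33. Markers of B and plasma cells set this piglet and control piglet 7 at weaning apart, with means over 2 genes of 13.76 and 13.43 against 4.91 to 9.80 on the other 41 arrays. The same 2 piglets had the highest means of 2 ileal genes at weaning (12.40 and 12.27, the others 8.40 to 11.20). Later ages reached higher ileal means, up to 14.67 in controls and 13.97 in the amoxicillin arm at 4 d postweaning. At 4 wk postweaning the highest were 14.72 and 13.13. In bulk mucosa, fewer cells of a type and less RNA per cell cannot be told apart. Results that rest on these 2 weaning piglets are given with and without them, a setting chosen after the values had been seen.

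Of the 8 genes, 6 exceeded a log2 value of 7.68 on every array of at least 1 group and were tested among 12771 genes. CYP2C42, CYP2D25, CYP3A29 and CYP3A46 did so in all 10 groups, CYP2C49 in 5 groups, and CYP2B22 only in both day 7 groups. The counts of calls below describe these 6 genes and support nothing about the 8. How often the groups of other genes do not overlap was not counted, so a lack of overlap below only describes the values. CYP1A1 and CYP2C33 passed in no group and are given as levels.

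**Figure D1:**
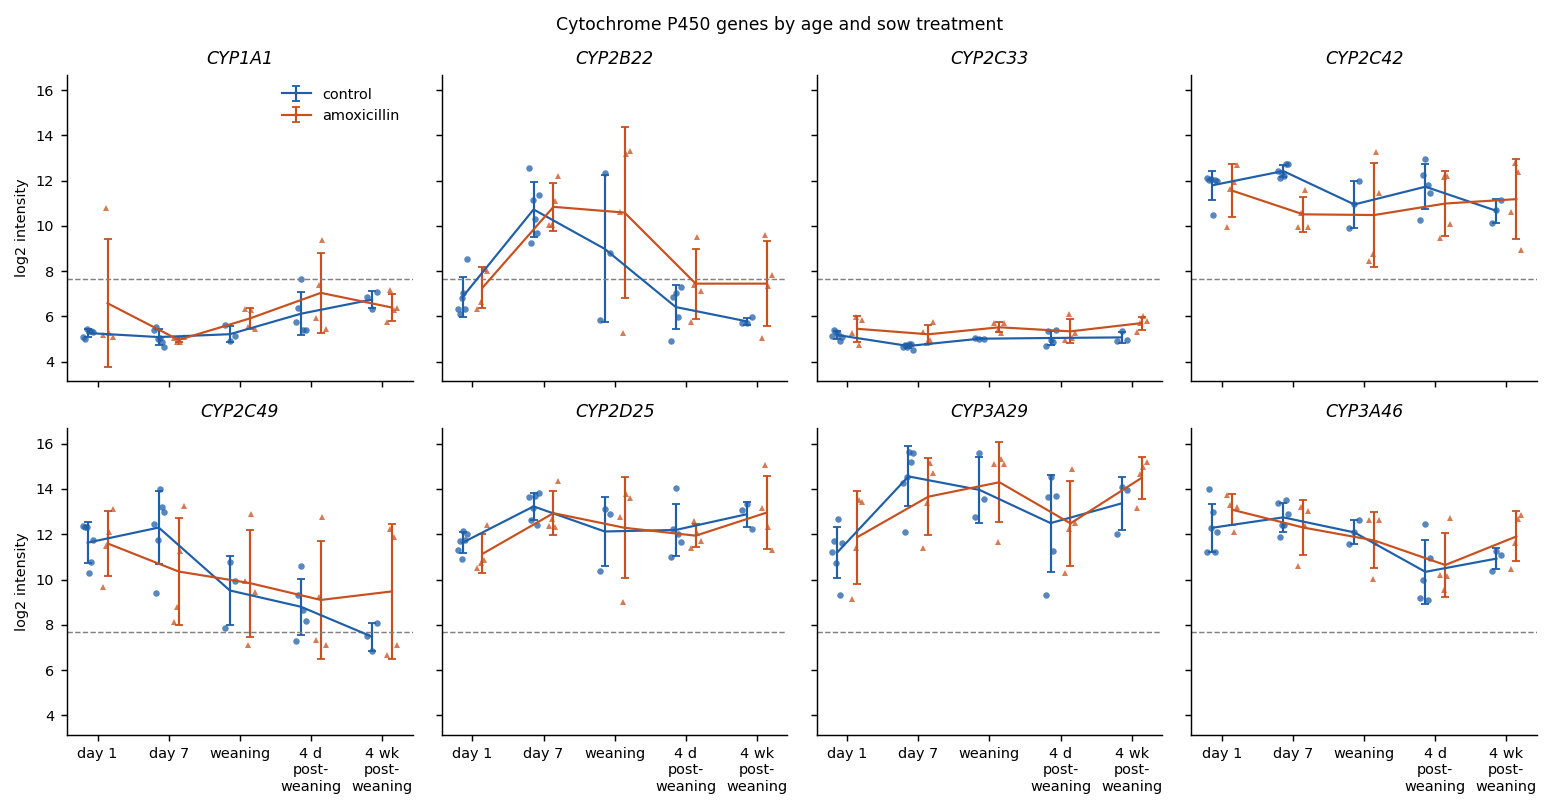
Log2 intensity (vertical axis) of the 8 P450 genes at the 5 ages (horizontal axis), with each point 1 piglet, blue circles for control and orange triangles for amoxicillin, lines through the group means and bars for the SD. The dashed line marks the filter at 7.68. CYP2B22 lies above it in every day 7 piglet and in some piglets of the other ages, CYP2C33 never does, and the arms overlap in most groups.

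CYP2B22, a member of the subfamily best known as a target of NR1I3, had its highest mean at day 7 in both arms and lower means at day 1 and after weaning. In the amoxicillin arm the median was higher at weaning (11.89) than at day 7 (10.56). Without both weaning piglets with high B cell markers, the weaning mean differed from that of day 7 by 1.52 (SE 0.91) in the amoxicillin arm and by -0.17 (SE 0.98) in controls. In control piglets at day 1 the lowest, median and highest values were 6.09, 6.58 and 8.54, and at day 7 they were 9.25, 10.75 and 12.56. No day 7 piglet overlapped a day 1 piglet. The step was 3.87 on the log2 scale (SE 0.96, measured as 14.6-fold, 95% interval 1.92 to 5.82), with an adjusted p of 0.0275 in the limma fit. It was called in a gene that passed the filter through its day 7 groups, and 1 of its 2 probes was above background on only 3 of the 6 day 1 arrays. Without the filter the adjusted p was 0.0650, and with a random or fixed slide block it was 0.10 or 0.661, so the call was lost in each of these fits. Between these ages 1.21% of all genes tested were called in either direction and 0.681% were called higher. CYP2B22 and CYP3A29 were the 2 called of the 6, and both rose.

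The amoxicillin arm showed a step of similar size. Its day 1 values were 6.34, 6.62, 7.99 and 8.10, and its day 7 values 10.03, 10.03, 11.09 and 12.23, again without overlap. The difference of 3.58 (SE 1.18, 95% interval 1.19 to 5.96) had an adjusted p of 0.214 and was not called, in a comparison in which 0.720% of genes were. Within slide 1 the control step was 4.04 and within slide 4 the amoxicillin step was 3.12. Beside it, the enterocyte mean went from 14.90 to 15.25 in controls and from 14.96 to 15.03 in the amoxicillin arm. Of its 9 genes, 8 were higher in controls with 1 called, and 5 were higher in the amoxicillin arm with 0 called. T cell markers moved more, from a mean over 5 genes of 6.57 to 7.99 and from 6.52 to 8.21, with 2 of the 5 called higher in each arm, and the mean of 3 smooth muscle genes went from 10.77 to 11.47 and from 10.63 to 11.45. Their part in the P450 steps was not tested.

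The weaning piglets diverged most. Control values were 5.84, 8.81 and 12.32 and amoxicillin values 5.27, 10.61, 13.16 and 13.32, which span almost the whole range of the gene over the 43 arrays (4.91 to 13.32). The lowest value of each arm belonged to the piglet with high B cell markers. By 4 d postweaning the control values were 4.91, 5.96, 6.84, 7.06 and 7.32, and the amoxicillin values were 5.77, 7.14, 7.40 and 9.50. The step into the 4 d postweaning group was -2.57 in controls (adjusted p 0.228) and -3.14 in the amoxicillin arm (adjusted p 0.0991), and neither was called. Without both weaning piglets these steps in limma were -4.15 (SE 1.00, adjusted p 0.0117) and -4.91 (SE 0.91, adjusted p 0.00125). There 6.04 and 7.63% of all genes were called. The amoxicillin step from day 1 to day 7 was then also called (adjusted p 0.0192), where 1.36% of all genes were. Both piglets were left out after their values had been seen, and each was the lowest of its weaning group. Leaving them out raised the weaning means and lowered the SEs of the later steps (1.22 and 1.18 with them), so these calls are a description and no independent support. At 4 wk postweaning the control piglets lay between 5.69 and 5.96 and the amoxicillin piglets between 5.04 and 9.61.

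Over the 5 ages CYP2B22 differed in both arms by the moderated F-test of limma, with adjusted p-values of 0.00138 in controls and 0.0104 in the amoxicillin arm. Without the filter that admitted the gene through day 7 they were 0.00269 and 0.0132, with a random slide block 0.0119 and 0.0303, and with a fixed one, which compares ages within slides, 0.196 and 0.110. Of all genes tested, 30.5% differed between ages in controls and 47.0% in the amoxicillin arm, against 4 and 1 of the 6 P450 genes. Both CYP2B22 probes followed one course (r = 0.93 over 43 arrays, a description). The dimmer probe was above background on 0 of 5 control arrays at 4 d postweaning and 0 of 3 at 4 wk postweaning. In the amoxicillin arm it was above background on 2 of 4 arrays at each of these ages. The call of the day 1 to day 7 step in controls was lost on leaving out singly piglet 16, 17, 18 or 19B of day 1 or piglet 4, 20, 21 or 23 of day 7 (8 of 12), with adjusted p-values of 0.0541 to 0.0776, while the difference stayed between 3.50 and 4.21 over all 12.

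The CYP2C subfamily, whose enzymes oxidize acidic drugs and polyunsaturated fatty acids, gave 2 tested genes, CYP2C49 and CYP2C42, which lie on the same chromosome in the pig gene table. In control piglets the CYP2C49 means were lower at each age after day 7. Its lowest, median and highest values were 10.27, 12.03 and 12.36 at day 1 and 9.39, 12.72 and 13.99 at day 7. Weaning piglets held 7.84, 9.92 and 10.79, and by 4 wk postweaning the values were 6.84, 7.51 and 8.07, below every control piglet of day 1 and day 7. The F-test between ages gave an adjusted p of 0.00626, or 0.279 with the slide as a fixed block. No single step was called, the largest being from day 7 to weaning at -2.78 (SE 1.25, adjusted p 0.451), where 0.125% of genes were called.

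In the amoxicillin arm CYP2C49 varied widely within each age. At day 7 the values were 8.13, 8.79, 11.25 and 13.25, and at 4 wk postweaning 6.65, 7.13, 11.89 and 12.23, with a pair of piglets at either end. The F-test was not passed (adjusted p 0.402), nor was the test of whether the treatment difference varied between days (adjusted p 0.617). Its 3 probes moved together, with r of 0.96 to 0.97.

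CYP2C42 kept a high level throughout, with group means between 10.67 and 12.43 in controls and between 10.48 and 11.56 in the amoxicillin arm. The F-test between ages was not passed in either arm (adjusted p 0.330 and 0.675). Its difference between arms at day 7 had the smallest unadjusted p of the 30 treatment contrasts. Control piglets lay at 12.11 to 12.74 (median 12.39) and amoxicillin piglets at 9.96, 9.96, 10.55 and 11.58, so the groups did not overlap. The difference was -1.91 (SE 0.73, 95% interval -3.38 to -0.44) with an unadjusted p of 0.0121 and an adjusted p of 0.621. At day 7 no gene of the 12771 was called between the arms (0%), although 887 had an unadjusted p under 0.05 in limma.

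The ratio of CYP2C49 to CYP2C42 within an array, whose change between ages shows an unequal change of the genes, was lower at the oldest age. From day 1 to 4 wk postweaning the difference CYP2C49 minus CYP2C42 changed by -3.03 in controls and by -1.74 in the amoxicillin arm. Each was the smallest p that an exact two-sided permutation test over these piglets can give (0.0238 for 3 against 6 and 0.0286 for 4 against 4), with an adjusted p of 0.0457 over the 8 tests of this kind. These ages lie on different slides, so age and slide cannot be told apart here, and CYP2C49 was near background in some of the oldest piglets, with none of its 3 probes above it in control piglet 34 and 1 of 3 in amoxicillin piglets 37 and 40. From day 1 to day 7 the changes were 0.04 and -0.19 (exact permutation p 0.974 and 0.886). Within slide 1 the control change was -1.18 (2 day 7 arrays against 6 of day 1). Within slide 4 the amoxicillin change was -1.34 (3 against 4), and neither was tested. These 8 tests were chosen after the levels had been seen.

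CYP2D25, known in the pig as a microsomal hydroxylase that can activate vitamin D, was well above the filter in all groups. Control values were 10.90 to 12.13 (median 11.71) at day 1 and 12.41 to 13.80 (median 13.40) at day 7, without overlap, a difference of 1.60 (SE 0.62, unadjusted p 0.0136, adjusted p 0.270). The amoxicillin arm held 10.52, 10.74, 10.87 and 12.40 at day 1 and 12.34, 12.38, 12.65 and 14.36 at day 7, a difference of 1.80 (SE 0.76, adjusted p 0.433), with a single day 1 piglet inside the day 7 range. Later group means stayed between 11.94 and 12.96. The F-test was not passed in either arm (adjusted p 0.242 and 0.172). Without both weaning piglets it was passed (0.0488 and 0.0109), where 36.4 and 52.3% of all genes passed. These piglets held 10.36 and 9.0, the lowest value of each weaning group.

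The CYP3A genes lie on 1 chromosome in the pig gene table, and CYP3A29 is the pig enzyme most often set beside human CYP3A4. CYP3A29 had its lowest mean at day 1 in both arms. Control values at day 1 were 9.30, 11.40 and 12.68 (lowest, median, highest) and at day 7 12.09, 14.87 and 15.64, which overlapped through a single day 7 piglet. The step of 3.36 (SE 0.87, measured as 10.2-fold, 95% interval 1.58 to 5.13) was called, with an adjusted p of 0.0378. A probe was saturated on 3 of the 6 day 7 arrays and on no day 1 array, which caps the day 7 side of this value. Within slide 1 the step was 1.98. The call was lost with a random or fixed slide block (adjusted p 0.191 and 0.924), without the filter (0.0817) and with the filter on spots above background (0.0511). On leaving out single arrays it remained only without piglet 19 of day 1 or piglet 19 of day 7 and was lost without any other of the 12, with adjusted p-values of 0.0566 to 0.136.

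At day 1 the amoxicillin piglets held CYP3A29 at 9.16, 11.40, 13.41 and 13.51, and at day 7 at 11.39, 13.37, 14.72 and 15.15. The difference of 1.79 (SE 1.07, 95% interval -0.38 to 3.96) was not called (adjusted p 0.683). Weaning values were 12.75, 13.54 and 15.59 in controls, and 11.64, 15.10, 15.11 and 15.34 in the amoxicillin arm, the low one again being piglet 8. At 4 d postweaning both arms had a mean of 12.5, with ranges of 9.34 to 14.54 and 10.30 to 14.89, and by 4 wk postweaning the means were 13.36 and 14.49. The F-test between ages was passed in controls (adjusted p 0.0266) and not in the amoxicillin arm (adjusted p 0.130). Without both weaning piglets the amoxicillin F-test was passed (adjusted p 0.0442), as it was by 52.3% of all genes. In controls it was lost with a random or fixed slide block (adjusted p 0.114 and 0.221), and without piglet 18 or 19B of day 1 or piglet 21 or 23 of day 7 (4 of 23), with adjusted p-values of 0.0539 to 0.0775.

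CYP3A46 had its highest mean at day 7 in controls and at day 1 in the amoxicillin arm, and its lowest at 4 d postweaning in both. Control values were 11.20, 12.17 and 13.99 (lowest, median, highest) at day 1 and 11.87, 12.65 and 13.49 at day 7. They were 11.55, 12.08 and 12.61 at weaning and 9.11, 9.20, 9.97, 10.95 and 12.47 at 4 d postweaning. The oldest control piglets held 10.40, 11.10 and 11.27. Ages differed in controls by the F-test (adjusted p 0.0124), but not with a random or fixed slide block (0.0716 and 0.398). In the amoxicillin arm group means went from 13.08 at day 1 through 12.30 and 11.73 to 10.64 at 4 d postweaning. The mean at 4 wk postweaning was 11.90. The F-test in this arm had an adjusted p of 0.0525, or 0.0384 without both weaning piglets, where 52.3% of all genes passed. The step from weaning to 4 d postweaning was -1.74 in controls (SE 0.73, adjusted p 0.173) and -1.09 in the amoxicillin arm (SE 0.71, adjusted p 0.381). It was not called in either arm, in comparisons in which 2.27 and 5.05% of genes were.

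Within an array, CYP3A29 minus CYP3A46 rose by 2.90 from day 1 to day 7 in control piglets (exact two-sided permutation p 0.00216, the smallest possible, adjusted p 0.0173, n = 6 and 6), an unequal change of the pair. CYP3A29 had a saturated probe on 3 of these day 7 arrays, and within slide 1 the change was 1.63. The amoxicillin change was 2.58 (exact permutation p 0.143, n = 4 and 4), and 2.46 within slide 4. From day 1 to 4 wk postweaning the changes were 3.53 and 3.80, each at the smallest p the exact permutation test can give there (0.0238 and 0.0286, adjusted p 0.0457). These 2 ages lie on different slides, so age and slide cannot be told apart here. CYP3A29 had a saturated probe on 2 of the 4 amoxicillin arrays of 4 wk postweaning, and CYP3A46 on 1 day 1 array of each arm. These tests are among the 8 chosen after the levels had been seen. The 3 probes of CYP3A29 agreed closely with one another (r of 0.92 to 0.99), and the 4 of CYP3A46 less so (0.48 to 0.89).

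**Figure D2:**
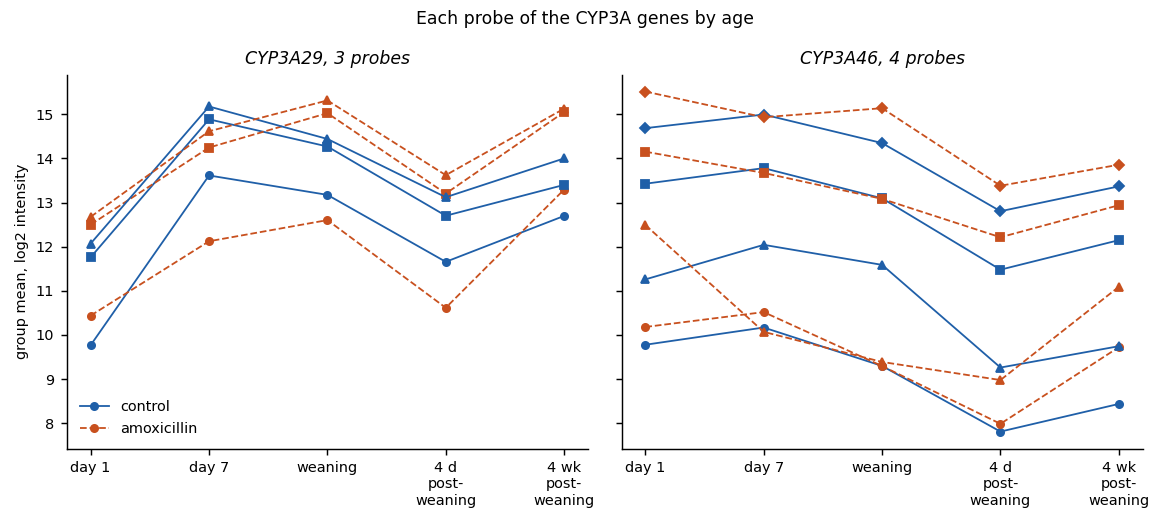
Group mean log2 intensity (vertical axis) of each CYP3A29 and CYP3A46 probe at the 5 ages (horizontal axis), with marker shapes for probes, solid blue lines for control and dashed orange lines for amoxicillin. All 3 CYP3A29 probes are lowest at day 1, and all 4 CYP3A46 probes have their lowest mean at 4 d postweaning in both arms.

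The remaining steps held no call among the 6 genes either. From 4 d to 4 wk postweaning no gene of the whole array was called in controls (0%, with 789 at an unadjusted p under 0.05), against 9.61% in the amoxicillin arm, where CYP3A29 changed by 2.01 (SE 1.07, adjusted p 0.215). From day 7 to weaning 8.75% of all genes were called in the amoxicillin arm, and the 6 P450 differences lay between -0.65 and 0.64.

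CYP1A1, the enzyme induced through the aryl hydrocarbon receptor, was close to background in most piglets. It lay between 4.65 and 7.67 in controls, with group means by age of 5.27, 5.09, 5.22, 6.12 and 6.75. In the amoxicillin arm the means were 6.58, 4.96, 5.91, 7.04 and 6.40. Both probes were above background on 6 of the 43 arrays. These were 1 control array at 4 d postweaning and 2 at 4 wk, and 1 amoxicillin array at day 1 and 2 at 4 d postweaning. Amoxicillin piglet 17 at day 1 stood out at 10.81, where the other 3 piglets of its group held 5.10, 5.16 and 5.25. Its probes read 11.99 and 9.63. The related gene CYP1A2, looked at after this value had been seen, was at 6.72 in that piglet and not above background, while piglet 18 of the same group held 9.80. Another CYP1A1 value above the filter came from amoxicillin piglet 33 at 4 d postweaning, at 9.38. CYP2C33 lay between 4.54 and 6.11 on all 43 arrays, and on none were all 6 of its probes above background.

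The comparison of the arms asks whether antibiotic treatment of the sow changed these genes in her piglets. None of the 30 differences was called in limma (adjusted p under 0.05 and a log2 difference beyond 1.5), and 1 had an unadjusted p under 0.05. The smallest adjusted p was 0.490, for CYP2C49 at 4 wk postweaning. Of all genes tested, 0.211% were called at day 1, 3.41% at weaning, 1.54% at 4 d postweaning and 2.13% at 4 wk postweaning. The differences ran from -1.94 to 2.00, and 17 of the 30 were higher in the amoxicillin arm. Standard errors of 0.65 to 1.35 left wide intervals. For CYP2C49 at 4 wk postweaning the difference of 2.00 had an interval of -0.74 to 4.74, for CYP2B22 at the same age 1.67 had one of -0.91 to 4.24, and for CYP2C49 at day 7 -1.94 had one of -4.26 to 0.37. Changes of several fold in either direction therefore lie inside many of these intervals. A difference between arms that varied between days was found for none of the 6 genes by the F-test of limma (0 at an unadjusted p under 0.05), a test passed by 6.18% of all genes.

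**Figure D3:**
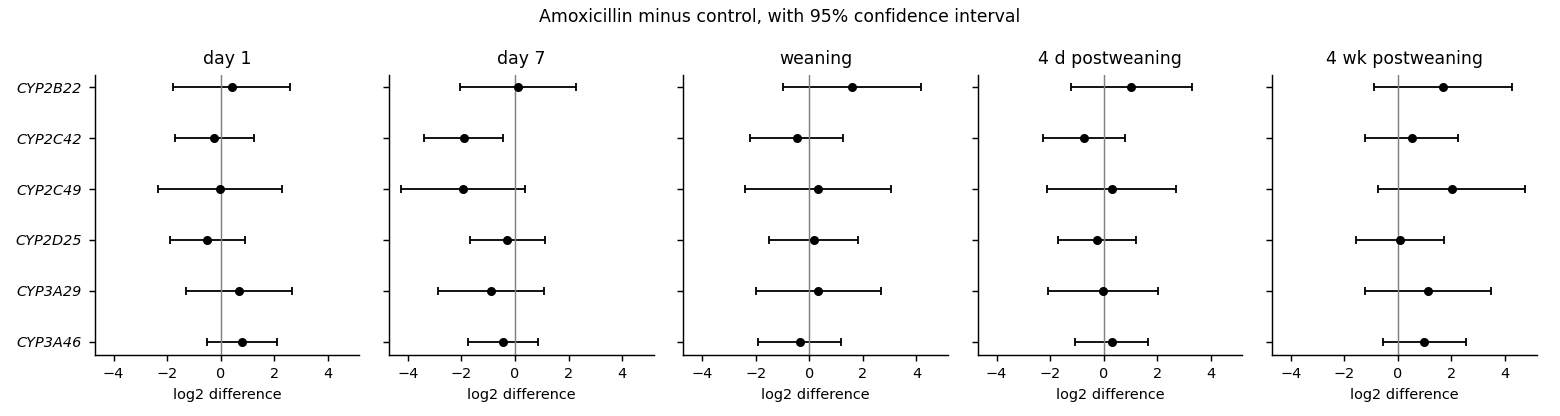
Log2 difference between amoxicillin and control piglets (horizontal axis) for the 6 tested genes (vertical axis) at each age, with points for the estimates and bars for the 95% confidence interval of the limma fit. All intervals but that of CYP2C42 at day 7 (-3.38 to -0.44) include 0.

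At weaning CYP2B22 differed by 1.60 (SE 1.27, 95% interval -0.97 to 4.18). The value depended on single piglets. Without amoxicillin piglet 8 it was 3.38 and passed the test (adjusted p 0.0383, against up to 0.993 without another piglet), whereas without both weaning piglets with high B cell markers it was 1.80 (SE 1.09, adjusted p 0.338). Spread within a group was wider in the amoxicillin arm for 25 of the 30 pairs of gene and age. The same held for most of 12475 genes, from 57.6% of them at 4 wk postweaning to 86.3% at day 1.

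Within a group, piglets that were high in one P450 gene tended to be high in others. Deviations from the group mean were correlated over the 43 arrays for each of the 15 pairs of tested genes, with p-values from 100000 permutations within groups. After Benjamini-Hochberg adjustment 11 of the 15 pairs passed, all with a positive r. Over all 12474 other genes the median r of a member lay between -0.03 and 0.04, and the partners in these 11 pairs ranked from 8 to 849 by r, so many genes outside the family were as strongly related. CYP2B22 and CYP2D25 had r = 0.74 (rho = 0.61, adjusted permutation p 0.00051 and 0.000862), CYP2C42 and CYP2C49 r = 0.71 (rho = 0.73, adjusted permutation p 0.00015 for each), and CYP2B22 and CYP3A29 r = 0.67 (rho = 0.73, adjusted permutation p 7.5e-05 and 0.00015). Without the 2 arrays farthest from the median of the gene named first, r was 0.57, 0.64 and 0.61. Without both weaning piglets it was 0.50, 0.67 and 0.63, and with deviations taken within group and slide 0.72, 0.79 and 0.70. CYP3A46 stood apart, passing with CYP3A29 alone (r = 0.49, rho = 0.43, adjusted permutation p 0.00917 and 0.0164), and its r with the other 4 genes lay between 0.05 and 0.34.

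Among 9 tested regulators and partners, 27 of 54 relations with the 6 genes passed by r and 24 by rho. The 25 positive ones ranked from 20 to 1036 among all 12474 genes, and many other genes were as strongly related. POR passed with 5 genes, with r of 0.72 for CYP2B22, 0.66 for CYP2D25, 0.62 for CYP2C49, 0.59 for CYP3A29 and 0.48 for CYP2C42, but not with CYP3A46 (r = 0.28, adjusted permutation p 0.151). NR1I3 passed with the same 5 genes, highest with CYP3A29 (r = 0.69, rho = 0.59, adjusted permutation p 0.000945 and 0.00243). Without both weaning piglets the r of POR was 0.37 to 0.56 and that of NR1I3 0.42 to 0.63 for these 5 genes. NR1I2 had r = 0.67 with CYP2B22 and 0.57 with CYP2D25, and these were 0.31 and 0.15 without both piglets, so they rest largely on those piglets. It also passed with CYP3A29 (r = 0.52, without both 0.39), CYP3A46 (0.48, 0.37) and CYP2C49 (0.48, 0.35), with adjusted permutation p-values of 0.00336, 0.00517 and 0.00793. The other xenobiotic receptor partner, RXRB, was negatively related to CYP2C42 (r = -0.49) and CYP2D25 (r = -0.44), though not by rho (adjusted permutation p 0.0585 and 0.106).

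Of 36 relations with the means of 6 marker lists, 6 passed, 4 of them positive. The enterocyte mean had r = 0.78 with CYP2B22, 0.69 with CYP2D25, 0.62 with CYP3A29 and 0.45 with CYP2C49, each passing (adjusted permutation p 0.00072, 0.0285, 0.00036 and 0.0285). Without both weaning piglets these were 0.55, 0.31, 0.79 and 0.40. CYP2C42 was negatively related to the mean of 2 goblet cell genes (r = -0.66, rho = -0.52, adjusted permutation p 0.0139 and 0.0389) and to that of 2 ileal genes (r = -0.49, rho = -0.48, adjusted permutation p 0.0282 and 0.0389). The means for B and plasma cells, T cells and smooth muscle passed with no P450 gene. The part of the mix of cells or of the place of sampling in these relations was not tested.

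**Figure D4:**
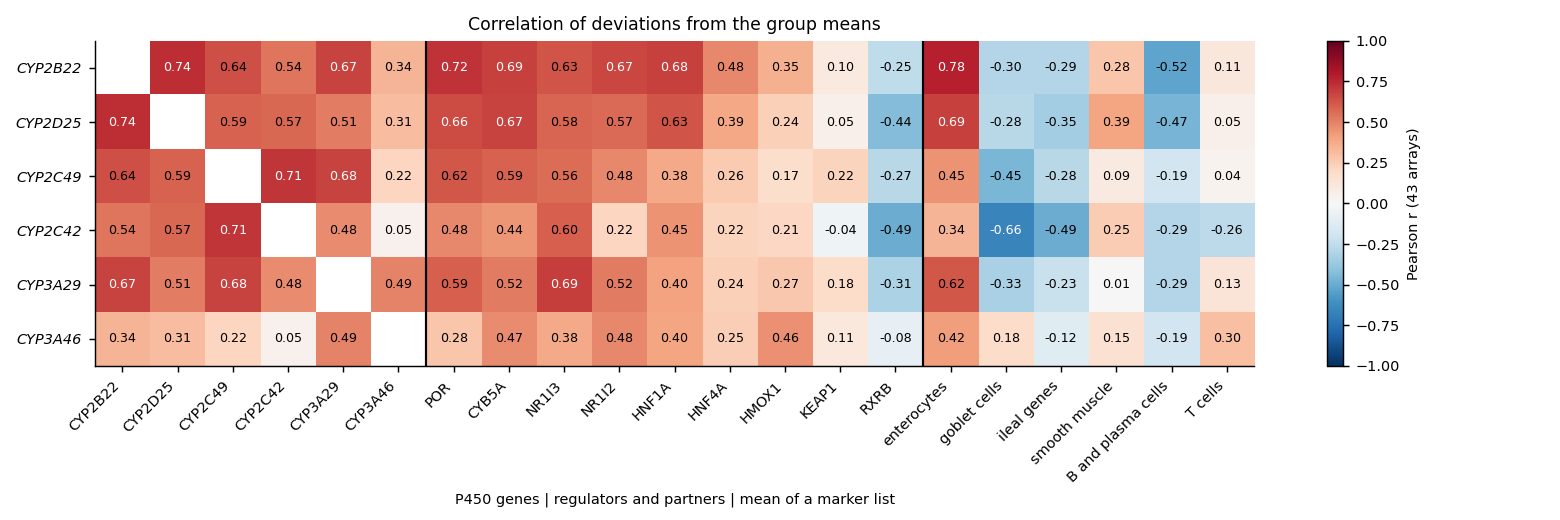
Pearson r of deviations from the group mean over the 43 arrays, for the 6 tested P450 genes (rows) with each other, with 9 regulators and partners and with the means of 6 marker lists (columns), on a colour scale from blue (-1) to red (1). The 5 upper rows are positive with one another and with POR and NR1I3, while CYP3A46 has its highest value among the P450 genes with CYP3A29 (0.49).

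Over all 43 arrays, group differences included, the named genes most like CYP2B22 were SLC52A2, a riboflavin transporter (r = 0.81), CALCB (0.77) and DGAT2, an enzyme of triglyceride synthesis (0.73). CYP2C49 was most like DGAT2 (0.80), HEBP1 (0.79) and SCARB1, a lipoprotein receptor (0.77), and CYP2C42 most like CYP2C49 (0.68), PMVK (0.62) and CIDEC (0.61). CYP2D25 came closest to DHDH (0.77), SLC52A2 (0.72) and AGPAT2 (0.70). For CYP3A29 the closest were PCK1, the enzyme that commits to gluconeogenesis (0.73), EPHX1, the microsomal epoxide hydrolase (0.73), and GOT1 (0.70), and for CYP3A46 they were FBP1, another gluconeogenic enzyme (0.79), catalase CAT (0.76) and LATS2 (0.74). These r values describe likeness and carry no test.

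Other genes of xenobiotic metabolism gave a comparison for the same arrays. Of 97 listed, 40 had a probe and 29 were tested. None was called between the arms at any age, with 2 to 4 of the 29 at an unadjusted p under 0.05 at each age in limma. Their median difference ran from -0.20 at day 1 (all genes -0.12) to 0.34 at weaning (all genes -0.07). Between ages 11 of the 29 differed in controls (30.5% of all genes) and 13 in the amoxicillin arm (47.0% of all genes). HMOX1, which degrades haem, fell by 2.36 from weaning to 4 d postweaning in controls (SE 0.40, adjusted p 0.00337) and by 1.34 in the amoxicillin arm (SE 0.39, adjusted p 0.0333). At 4 d postweaning it was 1.41 higher in the amoxicillin arm (SE 0.37, adjusted p 0.0270), under the fold needed for a call. MGST1, a membrane-bound glutathione transferase, rose by 1.86 over that step in controls (SE 0.47, adjusted p 0.0286), and its difference of 1.05 in the amoxicillin arm was not called (SE 0.46, adjusted p 0.167). MAOA, the monoamine oxidase, went from a mean of 11.98 at day 1 to 14.42 at 4 wk postweaning in controls and from 11.59 to 14.69 in the amoxicillin arm, and the lactonase PON2 from 10.17 to 8.47 and from 10.39 to 8.61, each with an F-test passed in both arms (adjusted p 0.000730 or less).

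Of the partners, CYB5A differed between ages in both arms (adjusted p 0.0136 and 0.00458), from a mean of 14.56 in controls at day 7 to 13.33 at weaning, and in the amoxicillin arm fell by 1.37 between these ages (SE 0.40, adjusted p 0.0214). POR, NR1I2 and NR1I3 did not pass the F-test between ages in either arm (adjusted p of at least 0.318), with group means of 9.89 to 10.95, 10.55 to 11.30 and 11.49 to 13.84. NR1I3 varied widely between piglets, for example from 8.10 to 14.32 among the control piglets of 4 d postweaning.

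Of 18 other P450 genes with a probe, 5 were tested, and none was called between the arms. CYP27A1, a mitochondrial sterol hydroxylase, and CYP24A1, which inactivates vitamin D, differed between ages in both arms (adjusted p 0.000501 and 0.000695 in controls, 0.00398 and 0.000101 in the amoxicillin arm). CYP27A1 had its highest mean at day 7, 9.36 in controls and 9.49 in the amoxicillin arm, and its lowest at 4 d postweaning, 6.56 and 7.02. CYP24A1 rose from a mean of 12.23 at day 1 to 13.17 at 4 wk postweaning in controls. For CYP19A1, the aromatase, the treatment difference varied between days (adjusted p 0.0356). At 4 wk postweaning it was -1.25 (SE 0.30, adjusted p 0.0106), under the fold needed for a call.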

How the data were processed

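The authors labelled jejunal RNA, hybridized each sample to a one-color Agilent porcine array and extracted the scans with Feature Extraction 10.7.3.1. They deposited linear intensity values per spot, with local background and flags, and a table of their log2 values. The genome build behind the array design is not given in the sources used here, and no probe sequences were used.

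Median spot intensity was background corrected (normexp, offset 1), quantile normalized and then log2 transformed with limma 3.58.1 in R 4.3.3, which gave the authors' deposited log2 table within 5e-09. Spots with an outlier flag (1 to 209 gene spots per array) were left out, and probes of an accession were averaged. The filter kept genes above 7.68, which is 1.1 times the level of the brightest dark spot left unflagged (6.98), in all arrays of 1 or more groups, after the methods. Precision is limited by how many arrays there are.

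The 43 arrays entered 1 fit of 10 groups (33 residual degrees of freedom), with Benjamini-Hochberg adjustment over 12771 genes. Calls required an adjusted p under 0.05, with a log2 difference beyond 1.5 between arms or beyond 1 between neighbouring ages. The F-tests used the adjusted p alone. Each arm shares its groups between steps. Confidence intervals are at 95%. Correlations and exact tests used SciPy 1.17.1 in Python 3.11.15. On simulated data, 200 of 12475 genes changed by 3 on the log2 scale were recovered at 97.5% (arms, day 1), 94% (arms, weaning), 100% (controls, day 1 to day 7) and 98% (F-test, controls). False calls numbered 5, 3, 7 and 18. These rates are for the genes changed in the simulation and do not give the power for the P450 genes, whose SEs between arms were 0.65 to 1.35. The CYP2B22 step of 3.58 from day 1 to day 7 in the amoxicillin arm was not called.

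Named genes were all members with a probe, genes of the xenobiotic and P450 lists called between arms or among the 3 with the smallest F-test p per arm, and the 3 named genes most correlated with each tested member. CYB5A, POR, NR1I2, NR1I3, RXRB, CYP1A2 and ALB were named after their values were seen. Members and lists were chosen with earlier results of these data known. Marker lists were enterocytes, goblet cells, ileal genes, smooth muscle, B and plasma cells, T cells, blood, hepatocytes and pancreatic acinar cells. Blood had no probe, and hepatocyte and acinar lists had 2 and 1 tested genes, none called between arms. Piglet numbers recur in both arms but name different animals. Over 10 shared numbers within a day, deviations correlated between -0.27 and 0.44, so they were not treated as pairs.

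Alternatives covered an offset of 50, the scanner's processed signal or normexp scaled to each array's 75th percentile, filtering on spots above background or not at all, flagged spots kept, 1 value per probe, the authors' table, separate fits, the slide or piglet number as a block, other fold thresholds, and leaving out each array. Leaving out the 3 dimmest arrays or both weaning piglets with high B cell markers was added after seeing the data.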

Additional observations from a re-analysis of the deposited data

Results flagged for a closer look

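In 4 of the 64 groups of 4 to 6 piglets examined, over 8 genes, a single piglet lay far from the rest by Dixon's test at the 95% level, which chance alone does for about 1 in 20 groups. CYP1A1 was at 10.81 in amoxicillin piglet 17 at day 1, with the others at 5.10 to 5.25. CYP2C42 was at 10.51 in control piglet 19 at day 1, with the group's median at 12.02 and its highest value at 12.13. CYP2D25 was at 14.36 in amoxicillin piglet 24 at day 7, with the others at 12.34 to 12.65. CYP3A29 was at 11.64 in amoxicillin piglet 8 at weaning, with the others at 15.10 to 15.34, and the enterocyte markers of this piglet were the lowest of the 43 arrays (13.33).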

How the results depend on the processing

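Of 1061 recomputed values for single genes, 994 kept their direction and their side of the threshold, 37 fell below it, 25 rose past it and 5 changed sign. The 994 include results that were not called and stayed so. The called day 1 to day 7 steps in controls were less stable. That of CYP2B22 fell below the threshold in 11 of 25 alternatives, and that of CYP3A29 in 14 of 25. The count of 4 genes that differed between ages in controls became 2 under a random slide effect and 0 under a fixed one, which keeps comparisons within slides alone. The count of 1 in the amoxicillin arm became 0 in the arm alone or under the fixed slide effect. It became 2 with an offset of 50, 1 value per probe, the authors' table or without the 3 dimmest arrays. Without both weaning piglets it became 4 of 6, where 52.3% of all genes passed (47.0% with them). On leaving out single arrays it was 4 without amoxicillin piglet 8 at weaning. It was 2 without control piglets 17, 10 or 30 or amoxicillin piglets 18, 4, 7, 29, 34, 37 or 40, and otherwise 1. The 2 called steps in controls became 1 with the filter on spots above background and 0 without a filter or with either slide effect, and ranged from 0 to 2 on leaving out single arrays. In the amoxicillin arm the 0 called steps became 2 without both weaning piglets, at steps where 1.36 and 7.63% of all genes were called. The count ranged from 0 to 1 on leaving out single arrays (1 without piglet 8).

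Between the arms, 0 calls became 0 to 1 on leaving out single arrays, and 2 with the piglet number as a replicate block, where CYP2B22 at weaning differed by 4.56 (adjusted p 0.0325). The numbers do not pair the piglets. At 4 wk postweaning that block turned the treatment differences of CYP2B22 to -0.92, CYP2C49 to -1.42 and CYP3A29 to -0.84. The last amoxicillin step of CYP2D25 turned to -0.14 without the 3 dimmest arrays, and that of CYP3A46 to -0.80 under the fixed slide effect. The cause of these changes was not tested. Saturated CYP3A29 probes on 11 arrays, and 3 to 6 piglets per group, limit what can be seen.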
